A study of Mus musculus with 45 samples.

Results

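The 10 genes described here are the core of the mammalian circadian clock: Arntl (also written Bmal1), Clock, Per1, Per2, Per3, Cry1, Cry2, Nr1d1, Nr1d2 and Dbp. They were chosen by name, and each was found once among the 18135 genes of the deposited table, so that 10 of 18135 genes are described. The series holds RNA-Seq of 45 brain samples from male C57BL/6J mice of 13 weeks. The tissue was prefrontal cortex (termed cortex), hippocampus or striatum. In each region there were 5 wild-type (WT) mice, 5 mice heterozygous for a Shank3 deletion (Shank3-HT) and 5 homozygous mice (Shank3-HM, "knock-out" in the labels). The deletion removes exons 14 to 16 of Shank3, which encodes a scaffold of excitatory postsynapses. All mice were kept on a dark/light cycle with free access to food, and the sources used here give no hour of dissection.

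In nearly every cell, ARNTL and CLOCK proteins pair and switch on genes that carry E-boxes, among them the Per and Cry genes, Nr1d1, Nr1d2 and Dbp. PER and CRY proteins then return to the nucleus and repress the ARNTL:CLOCK pair. NR1D1 and NR1D2 (the REV-ERB nuclear receptors) repress Arntl through ROR elements, and DBP is an output factor that activates genes with D-boxes. The transcripts of Per2, Per3 and Dbp therefore peak at a time of day when Arntl is low, and Arntl peaks when they are low. The forebrain holds such clocks outside the master clock of the suprachiasmatic nucleus.

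Promoter windows from RefSeq (build GRCm38.p6, 250 bases before to 50 bases after an annotated start site) matched 9 of the 10 genes (not Per2), with 13 windows in all. They are shown because they carry the elements by which the loop's members are named above. Each line gives the strand of the gene, 5′ to 3′, and capitals mark a match. The 5 windows are Arntl (chr7:113207261-113207560, plus strand, ROR element core TAGGTCA), Per1 (chr11:69098699-69098998, plus strand, E-box CACGTG), Per3 (chr4:151044616-151044915, minus strand, D-boxes TTATGTAA), Cry1 (chr10:85185005-85185304, minus strand, an E-box and the reverse strand of the E-prime-box CACGTT) and Nr1d1 (chr11:98775328-98775627, minus strand, the reverse strand of an E-prime-box).
Arntl: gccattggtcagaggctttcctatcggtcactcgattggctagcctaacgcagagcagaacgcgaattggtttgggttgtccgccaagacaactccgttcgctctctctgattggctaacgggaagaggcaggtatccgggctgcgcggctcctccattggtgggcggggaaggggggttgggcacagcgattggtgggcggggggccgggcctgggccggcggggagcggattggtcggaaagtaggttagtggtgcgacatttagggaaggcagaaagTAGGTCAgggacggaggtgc
Per1: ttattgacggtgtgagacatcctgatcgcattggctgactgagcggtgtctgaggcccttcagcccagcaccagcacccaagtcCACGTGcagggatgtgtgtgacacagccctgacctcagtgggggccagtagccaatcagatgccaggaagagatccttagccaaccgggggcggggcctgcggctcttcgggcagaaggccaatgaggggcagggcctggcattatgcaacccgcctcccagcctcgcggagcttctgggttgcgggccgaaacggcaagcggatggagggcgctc
Per3: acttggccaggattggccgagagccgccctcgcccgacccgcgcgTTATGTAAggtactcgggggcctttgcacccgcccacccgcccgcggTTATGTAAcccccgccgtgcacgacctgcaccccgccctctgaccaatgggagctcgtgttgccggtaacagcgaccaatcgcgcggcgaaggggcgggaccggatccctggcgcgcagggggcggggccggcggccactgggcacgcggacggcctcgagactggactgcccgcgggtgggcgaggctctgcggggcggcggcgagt
Cry1: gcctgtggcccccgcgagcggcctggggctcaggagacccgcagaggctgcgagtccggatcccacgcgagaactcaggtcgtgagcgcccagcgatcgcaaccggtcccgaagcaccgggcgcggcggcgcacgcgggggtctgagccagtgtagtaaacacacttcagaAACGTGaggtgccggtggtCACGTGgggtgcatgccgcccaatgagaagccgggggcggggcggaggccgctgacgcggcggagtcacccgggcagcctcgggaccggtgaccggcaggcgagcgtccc
Nr1d1: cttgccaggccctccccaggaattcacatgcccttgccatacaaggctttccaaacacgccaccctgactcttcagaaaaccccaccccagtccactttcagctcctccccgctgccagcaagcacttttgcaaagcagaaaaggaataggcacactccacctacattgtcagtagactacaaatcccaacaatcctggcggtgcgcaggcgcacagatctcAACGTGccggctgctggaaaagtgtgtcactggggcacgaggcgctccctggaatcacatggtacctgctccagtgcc

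Offsets below are from the start site to the first base of the match. Arntl held the ROR core at 30, that is, after the start. Per1 held an E-box at -166, and Cry1 held an E-box at -60 and an E-prime-box at -79. Per3 held D-boxes at -205 and -158. Cry2 and Nr1d1 each held an E-prime-box, at -166 and -28. The windows of Clock, Nr1d2 and Dbp held none of the motifs searched, and no clock window held the cAMP response element TGACGTCA. All motifs were searched on both strands. Among all 32851 mouse windows of the same length, 7.15% held the E-box, 4.68% the E-prime-box, 0.938% the D-box, 2.61% the ROR core and 1.79% the cAMP response element. A match is a description of letters in a window and not evidence of a bound site, and a window without one says nothing about the factor.

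Values are read counts normalized between samples by the authors (normalized counts). The columns summed to between 26118607 and 29568983, which describes the scaled values and not the sequencing depth. Shank3 separated the genotypes as labelled: Shank3-HM samples ranged from 3678 to 4446 in cortex and hippocampus against 6985 to 8717 in WT, and from 4569 to 6242 in striatum against 11309 to 12739.8. In Shank3-HT mice Shank3 differed from WT by -0.43 ± 0.04 in hippocampus (log2, SE, adjusted p = 0.000218 by limma within the region), by -0.50 ± 0.07 in striatum (adjusted p = 0.0494) and by -0.38 ± 0.07 in cortex (adjusted p = 0.288), so that the deleted gene itself was not called in Shank3-HT cortex. Marker genes of striatum and of hippocampus separated those regions from the others. Several libraries also held genes of other tissue. Summed normalized counts of 7 genes of striatal spiny projection neurons were 148760 to 204492 in striatum and 3670 to 6421 in the other regions, apart from the cortex library Shank3-HM replicate 2, at 38039.7. The sum of 6 genes of cortical excitatory neurons was 1234 to 10523 in striatum, where the highest was WT replicate 5, which also had the lowest spiny projection neuron sum. Next were Shank3-HT replicate 3 at 8370 and Shank3-HM replicate 1 at 8156, with the other 12 striatum samples between 1234 and 5094. The same sum was 32513 to 40872 in hippocampus and 47247 to 54634 in cortex, apart from cortex Shank3-HM replicate 2. That library was at 29351, below every hippocampus sample. The sum of 6 hippocampal neuron genes was 10108 to 11909 in hippocampus and at most 6929.6 in the others. Choroid plexus genes varied widely in hippocampus, with sums of 1281.5 to 123279, and were at 68482 in the striatum library Shank3-HT replicate 5, against 454 to 1555 in the other striatum libraries. In cortex they were highest in Shank3-HT replicate 3, at 1118, and Shank3-HM replicate 2, at 707, against 61.7 to 242 in the others. No count of clock genes called between genotypes or regions changed without striatum WT replicate 5, nor any between genotypes without striatum Shank3-HT replicate 5, and the part of choroid plexus RNA in the hippocampal values was not tested.

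Regional differences among WT mice were clear for most clock genes. WT hippocampus had the lowest mean of the 3 regions for all 10 genes. In a limma fit of all 45 samples on log2(normalized count + 1), 9 of 10 genes were lower in WT hippocampus than in WT cortex (adjusted p under 0.05), where 23.3% of the 16708 genes tested were called lower. All 10 were higher in WT striatum than in WT hippocampus, where 27.8% of genes were called higher. Between WT striatum and WT cortex 5 genes were higher and 1 was lower, where 59.3% of genes were called in either direction. The median log2 difference of the 10 genes was -0.57 for hippocampus against cortex, 0.70 for striatum against hippocampus and 0.23 for striatum against cortex, with medians over all genes of 0.01, -0.0019 and 0.01. In bulk tissue, fewer expressing cells and less RNA per cell cannot be told apart.

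**Figure D1:**
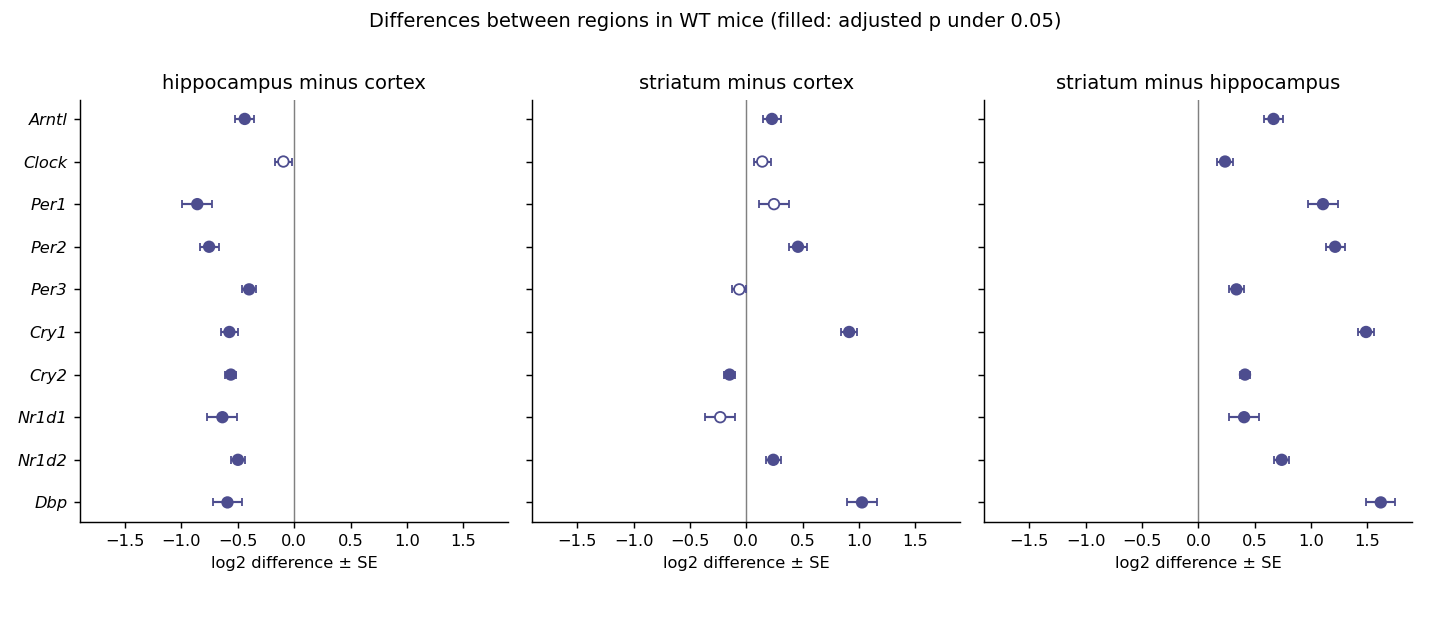
Log2 differences between regions in WT mice for each clock gene, from the limma fit, with standard errors as bars (5 mice a group). Filled circles passed an adjusted p of 0.05; in the left panel all 10 genes lie below 0 and only Clock is open, and in the right panel all 10 lie above 0, up to 1.62 for Dbp.

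Dbp, the output factor of the D-box, had the widest regional range. Its normalized counts in the 5 WT striatum samples were 3901, 4284, 4658, 5302 and 5812. In WT cortex they were 1821, 1883, 2549.6, 2652 and 2941, and in WT hippocampus 1198, 1369.7, 1529.6, 1827 and 1908. Every striatum sample lay above every sample of the other regions, while cortex and hippocampus overlapped. Striatum was 2.04-fold above cortex (log2 difference 1.03 ± 0.13, SE, adjusted p = 5.36e-09) and 3.07-fold above hippocampus (1.62 ± 0.13, adjusted p = 2.27e-14). Hippocampus was below cortex by a log2 difference of -0.59 ± 0.13 (adjusted p = 0.0002).

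Among the repressors, Cry1 showed the largest differences of striatum from the other regions, while Per1, Per2 and Nr1d1 differed more between hippocampus and cortex. Cry1, a strong repressor of ARNTL:CLOCK, measured 1161, 1185, 1234, 1239.6 and 1303 in WT striatum. WT cortex had 595, 596, 638, 651 and 784, and WT hippocampus had 392, 404, 429, 472 and 489. The 3 regions did not overlap at all. Striatum exceeded cortex by 0.91 ± 0.07 (log2, SE, adjusted p = 3.02e-14) and hippocampus by 1.49 ± 0.07 (adjusted p = 4.12e-21). Cry2, its paralog, was instead highest in cortex, at 5013 ± 221 (mean ± SD, n = 5) against 4525 ± 219 in striatum and 3394 ± 128 in hippocampus. Cry2 in striatum was thus lower than in cortex by a log2 difference of -0.15 ± 0.05 (SE, adjusted p = 0.0081), the only clock gene called lower there.

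The Period genes, whose proteins carry the negative feedback, were not alike across regions. Per2 had WT values of 3272, 3596, 3598, 4103 and 4198 in striatum, 2376, 2631, 2703, 2767 and 3181 in cortex, and 1290.5, 1577, 1592, 1715 and 1951 in hippocampus. None of these ranges overlapped, and the log2 differences were 0.46 ± 0.08 for striatum against cortex (SE, adjusted p = 7.91e-06) and -0.76 ± 0.08 for hippocampus against cortex (adjusted p = 3.6e-10). Per1, which also responds directly to neuronal activity and glucocorticoids, had WT values of 3741, 4250.3, 4669, 4743 and 5363 in striatum, 2947, 3606, 3609, 4200.4 and 4994 in cortex, and 2028, 2059, 2111, 2145 and 2156 in hippocampus. Striatum and cortex overlapped (log2 difference 0.25 ± 0.13, adjusted p = 0.107), and both lay wholly above hippocampus. Of 12 activity-regulated genes, 10 were also called lower in WT hippocampus than in cortex (median -1.29), where 23.3% of all genes were. In striatum against hippocampus 8 were called higher and 1 lower (median 1.25), where 27.8% and 28.3% of all genes were. The part of the activity-regulated genes in the Per1 levels was not tested. Per3 was nearly level between cortex, at 2496 ± 67.3 (SD, n = 5), and striatum, at 2397 ± 179 (log2 difference -0.06 ± 0.06, SE, adjusted p = 0.417). In hippocampus Per3 was 1894 ± 105, below both.

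In the positive arm, Arntl differed between all 3 regions. Its WT values were 872, 878, 885, 1089 and 1250.0 in striatum, 792, 810, 863, 865 and 874 in cortex, and 561, 607, 639, 645 and 651 in hippocampus. The highest 2 striatum samples, replicates 3 and 4, stood well above the others, and the difference from cortex (0.23 ± 0.08, adjusted p = 0.0161) was no longer called without replicate 3 (0.19, adjusted p = 0.0575) or replicate 4 (0.14, adjusted p = 0.122). Hippocampus lay wholly below cortex (-0.44 ± 0.08, adjusted p = 2.18e-05). Clock, the partner of ARNTL, was the most even: 3092 ± 197 in striatum, 2805 ± 219 in cortex and 2651 ± 430 in hippocampus (SD, n = 5). The hippocampal mean was pulled down by WT replicate 1, at 1893 against 2721 to 2931 in the others. Without it the difference from cortex changed sign, from -0.10 to 0.02, and the call against striatum (0.24 ± 0.07, adjusted p = 0.0065) was lost (0.12, adjusted p = 0.0763).

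The REV-ERB receptors also differed from each other. Nr1d1 measured 2553, 2593, 3132, 3336 and 3857 in WT cortex, 2060.1, 2317, 2618, 3076 and 3117 in WT striatum, and 1655, 1816, 1882, 2067 and 2511 in WT hippocampus. Its spread within each group was wide, and cortex and striatum were not separated (log2 difference -0.23 ± 0.13, adjusted p = 0.136). Nr1d2 was highest in striatum, at 5027 ± 510, against 4237 ± 101 in cortex (SD, n = 5; log2 difference 0.24 ± 0.07, SE, adjusted p = 0.0017) and 3011 ± 331 in hippocampus. Going from the highest region to the lowest, the order was striatum, cortex, hippocampus for 7 genes and cortex, striatum, hippocampus for Per3, Cry2 and Nr1d1. Neighbours in that order that did not differ past the threshold were striatum and cortex for Clock, Per1, Per3 and Nr1d1, and cortex and hippocampus for Clock. Ranges of 5 against 5 WT samples did not overlap for 8 genes lower in hippocampus than in cortex (16.5% of all genes), for 8 higher in striatum than in hippocampus (19.1%) and for 3 higher in striatum than in cortex (22.9%).

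**Figure D2:**
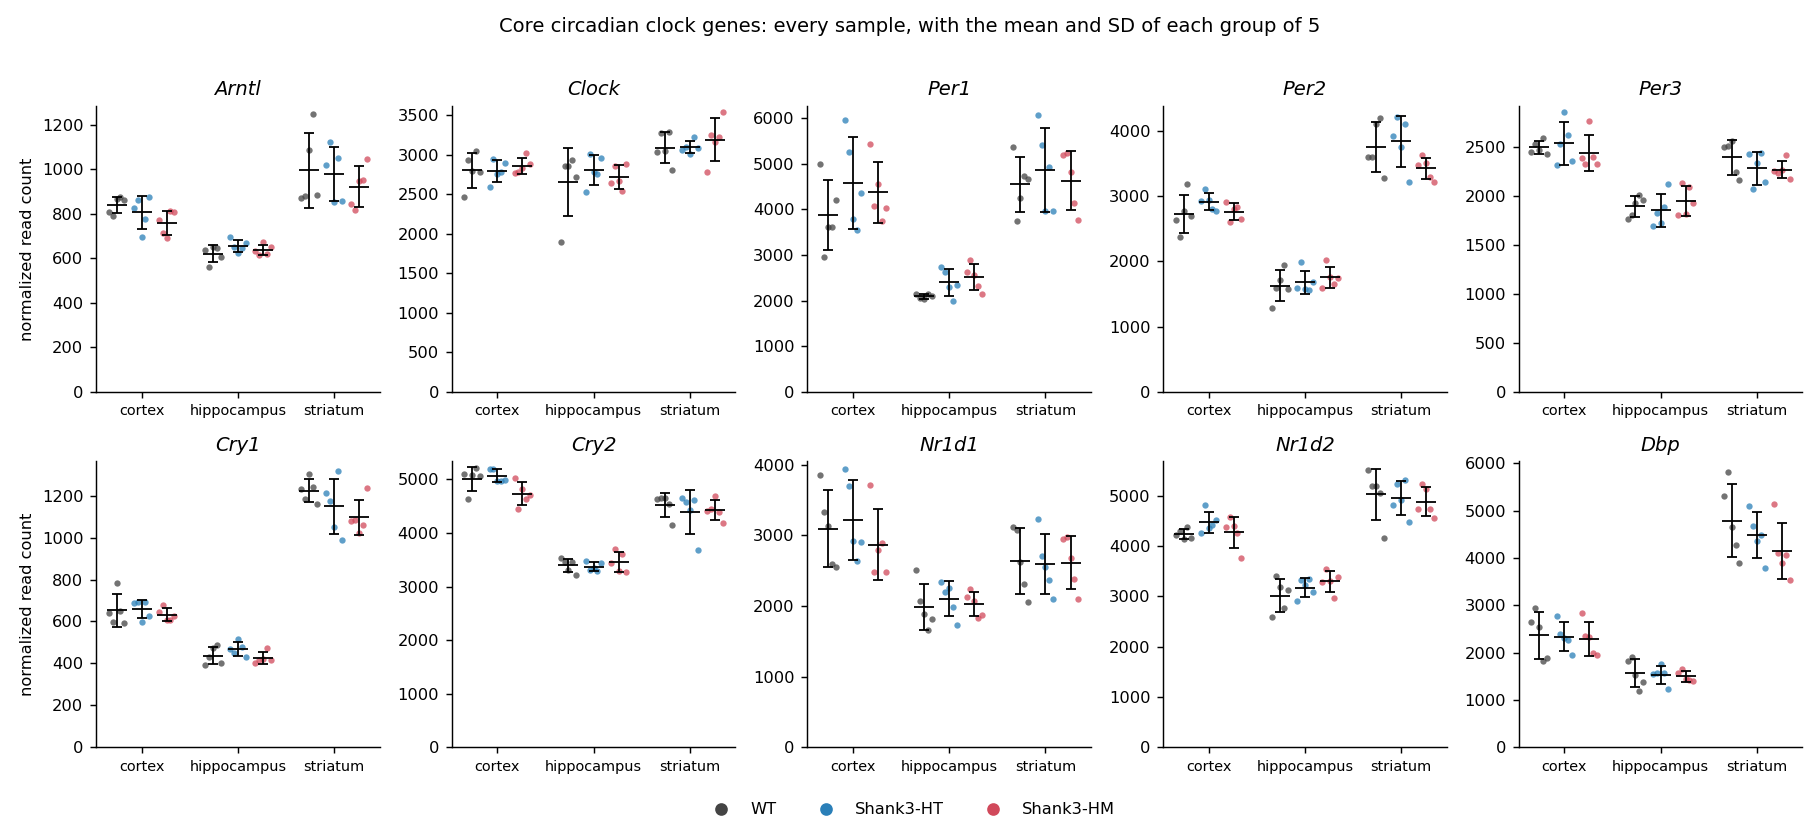
Normalized read counts of the 10 clock genes in all 45 samples, by region (x axis) and genotype (colour), with the mean (bar) and SD (whiskers) of each group of 5. In each of the 3 genotypes the mean of Dbp, Cry1 and Per2 is highest in striatum and lowest in hippocampus, and the genotypes overlap within every region; the low Clock sample in WT hippocampus is at 1893.

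Other genes linked to the clock were read from a list of 24. Between WT striatum and WT cortex 9 of them were higher and 11 lower, where 30% (5016 of 16708) of all genes were called higher and 29.3% lower. In hippocampus against cortex 4 were higher and 13 lower (23.3% of all genes in each direction), and in striatum against hippocampus 13 were higher and 7 lower (27.8% and 28.3%). Npas2, a paralog of Clock that can take its place beside ARNTL, was 2374 ± 291 in WT striatum, 1296 ± 91.8 in cortex and 571 ± 59.7 in hippocampus (SD, n = 5), a log2 difference of 2.05 ± 0.09 between striatum and hippocampus (SE, adjusted p = 2e-23). Rora and Rorb, activators at the elements that NR1D1 represses, were highest in cortex: relative to it, Rora differed by -0.79 ± 0.11 in striatum and -1.35 ± 0.11 in hippocampus (log2, SE), and Rorb by -1.28 ± 0.11 and -1.67 ± 0.11. Rorb also marks neurons of a cortical layer. Bhlhe40 (DEC1), a repressor at E-boxes that also responds to activity, was lower than in cortex by -1.69 ± 0.12 in striatum and -0.93 ± 0.12 in hippocampus. Bhlhe41 (DEC2), its paralog, was higher in striatum than in cortex by 0.96 ± 0.11.

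The D-box family of Dbp followed its regional order only in part. Tef was higher in striatum than in cortex by 0.44 ± 0.05 (log2, SE, adjusted p = 1.19e-10) and lower in hippocampus by -0.25 ± 0.05 (adjusted p = 2.13e-05). Hlf was level between striatum and cortex (0.02 ± 0.09, adjusted p = 0.86) and lower in hippocampus by -1.09 ± 0.09 (adjusted p = 3.45e-14). Nfil3, which represses at D-boxes, was lower in striatum than in cortex by -0.54 ± 0.15 (adjusted p = 0.0026) and than in hippocampus by -0.78 ± 0.15 (adjusted p = 3.34e-05). Of the enzymes that turn PER and CRY proteins over, Csnk1e was highest in cortex (-0.46 ± 0.05 in striatum, -0.60 ± 0.05 in hippocampus), and Fbxl21 was highest in striatum, at 211 ± 62.5 against 83.6 ± 26.7 in cortex and 80.2 ± 15 in hippocampus (SD, n = 5). Btrc was highest in striatum as well, by 0.26 ± 0.04 against cortex and 0.39 ± 0.04 against hippocampus (log2, SE). Csnk1d and Fbxw11 were instead highest in hippocampus, by 0.12 ± 0.04 (adjusted p = 0.0139) and 0.25 ± 0.05 (adjusted p = 1.44e-05) against cortex, and lowest in striatum, with differences from hippocampus of -0.29 ± 0.04 and -0.37 ± 0.05.

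The second question was whether clock genes differed between the Shank3 genotypes. No clock gene passed the threshold in any region. Of 60 tests (10 genes, 2 mutant genotypes, 3 regions; limma within each region), 0 passed an adjusted p of 0.05, and the lowest adjusted p was 0.657. At an unadjusted p under 0.05 there were 4. With the same fit Shank3 was not called in Shank3-HT cortex, so differences of that size could also be missed. Over all genes, the shares called were 0% for Shank3-HT and 0.0121% for Shank3-HM in cortex, 0.00603% for each in hippocampus, and 0.00607% and 0.182% in striatum. The shares at an unadjusted p under 0.05 were 2.68% and 5.49% in cortex, 5.26% and 4.73% in hippocampus, and 7.43% for each in striatum. The largest difference of the 60 was 0.25 on the log2 scale, with standard errors between 0.044 and 0.147 over all 60. No clock gene had WT and mutant ranges without overlap in any of the 6 comparisons, where the shares of all genes without overlap were 0.630% and 0.800% in cortex, 0.797% and 0.736% in hippocampus, and 0.971% and 1.86% in striatum (Shank3-HT and Shank3-HM).

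**Figure D3:**
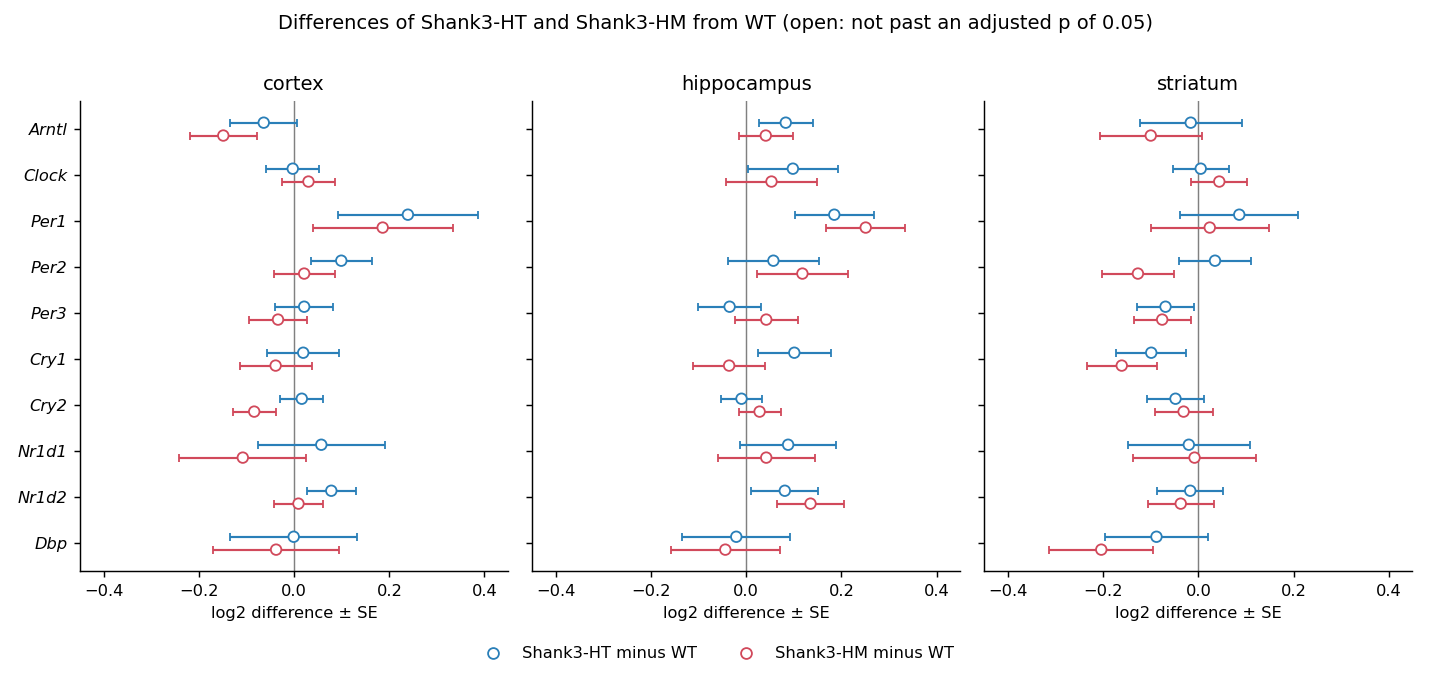
Log2 differences of Shank3-HT and Shank3-HM from WT for each clock gene in cortex, hippocampus and striatum, with standard errors as bars (limma, 5 mice a group). All 60 circles are open, and the farthest from 0 is Per1 in Shank3-HM hippocampus, at 0.25.

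The 4 lowest unadjusted p-values belonged to Per1, Arntl and Cry1. Per1 in hippocampus was 2154, 2316, 2564, 2635 and 2891 in Shank3-HM and 1991, 2304, 2341, 2633 and 2738 in Shank3-HT, against 2028 to 2156 in WT. The 5 WT values were close together, with an SD of 55.1 against 286 in Shank3-HM and 295 in Shank3-HT, and 4 of 5 samples of each mutant genotype lay above all of them. The log2 differences were 0.25 ± 0.08 for Shank3-HM (SE, adjusted p = 0.92 by limma) and 0.19 ± 0.08 for Shank3-HT (adjusted p = 0.926). In cortex Per1 differed by 0.24 ± 0.15 in Shank3-HT and 0.19 ± 0.15 in Shank3-HM, with values from 3557 to 5961 in mutants and 2947 to 4994 in WT. Arntl in cortex was 691, 712, 773, 807 and 813 in Shank3-HM, a log2 difference of -0.15 ± 0.07 from WT (adjusted p = 0.878). The cortex library with striatal genes (Shank3-HM replicate 2) held 712, and without it the difference was -0.13 (adjusted p = 0.939). Cry1 in striatum was 1020.3, 1061, 1078, 1086 and 1237 in Shank3-HM, a difference of -0.16 ± 0.07 (adjusted p = 0.657).

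The direction of the differences, none of which passed the threshold, was counted in each region. In striatum of Shank3-HM mice, 8 of 10 clock genes were below WT and 2 above, with a median log2 difference of -0.06 (0.00072 over all genes). Dbp was 3543, 3887, 4071, 4102 and 5146 there, against 3901 to 5812 in WT (-0.20 ± 0.11), and Per2 was 3223, 3301, 3472, 3507 and 3630.1, against 3272 to 4198 (-0.13 ± 0.08). In hippocampus of Shank3-HM mice 8 of 10 were above WT (median 0.04, against 0.0037 over all genes), and in cortex 4 of 10 (median -0.04, against -0.0025). Shank3-HT samples had 7 of 10 above WT in cortex, 7 in hippocampus and 3 in striatum, with medians of 0.02, 0.08 and -0.02. These counts share the same WT samples within a region. In striatum, all 5 oligodendrocyte genes listed were positive in Shank3-HM (median 0.25, 0 at an unadjusted p under 0.05) and in Shank3-HT (median 0.36, 5 at an unadjusted p under 0.05, where 7.43% of all genes were), with 0 past the adjusted threshold. Their sums were 172554 to 227923 in WT, 191584 to 290231 in Shank3-HM and 187499 to 317462 in Shank3-HT striatum, while 5 of 5 astrocyte genes were positive in Shank3-HT striatum (median 0.16, 3 at an unadjusted p under 0.05). In Shank3-HT hippocampus 6 of 6 choroid plexus genes were negative (median -1.58, 1 at an unadjusted p under 0.05) and 5 of 6 cortical excitatory neuron genes positive (median 0.21, 4 at an unadjusted p under 0.05, where 5.26% of all genes were), and in Shank3-HT striatum 6 of 6 choroid plexus genes were positive (median 1.5). In Shank3-HM cortex 7 of 7 spiny projection neuron genes were positive (median 0.93) and 6 of 6 cortical excitatory neuron genes negative (median -0.24), with 1 of each at an unadjusted p under 0.05. There, 4 of 5 endothelial genes were negative (median -0.17, 3 at an unadjusted p under 0.05, where 5.49% of all genes were). Also, 5 of 5 microglia genes were negative and 5 of 5 oligodendrocyte genes positive, with 1 of each at that p. In Shank3-HM hippocampus 5 of 6 cortical excitatory neuron genes were positive (median 0.14, 2 at that p, where 4.73% of all genes were). No gene of these lists passed the adjusted threshold, and their part in the clock gene counts was not tested. Of the 24 other clock-linked genes, 0 passed the threshold in any of the 6 comparisons, and 0 to 3 had an unadjusted p under 0.05.

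Whether the mutant difference itself changed between regions was tested as an interaction of genotype and region in the 45-sample fit. Of 60 interaction tests, 0 passed the threshold (lowest adjusted p 0.872) and 1 had an unadjusted p under 0.05, while for Shank3-HM 0.0539% of all genes were called for striatum against cortex, 0% for hippocampus against cortex and 0.0718% for striatum against hippocampus, and 0% in each case for Shank3-HT. The shares of all genes at an unadjusted p under 0.05 were, in the same order, 5.42%, 4.45% and 5.37% for Shank3-HM and 3.46%, 3.35% and 5.60% for Shank3-HT. The gene at an unadjusted p under 0.05 was Per2, whose Shank3-HM difference in striatum was below that in hippocampus by -0.25 ± 0.12 (log2, SE, adjusted p = 0.93).

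Per1 can rise with glucocorticoids or neuronal activity, so lists for both are set beside it. The 15 glucocorticoid-responsive genes were positive in Shank3-HM for 14 in cortex, 14 in hippocampus and 15 in striatum, with medians of 0.20, 0.24 and 0.25, and in Shank3-HT for 12, 13 and 12. None of these tests passed the adjusted threshold; in Shank3-HM 6, 4 and 8 of the 15 had an unadjusted p under 0.05, where 5.49%, 4.73% and 7.43% of all genes did, and in Shank3-HT 0, 0 and 1 had, where 2.68%, 5.26% and 7.43% did. Their summed normalized counts in hippocampus were 14780 to 18608 in WT and 15704 to 18566 in Shank3-HT samples, and 18018 to 20817 in Shank3-HM samples. In striatum they were 12587 to 15357 in WT, 12892 to 18154 in Shank3-HT and 16076 to 20619 in Shank3-HM, so that WT and Shank3-HM did not overlap, while Per1 there differed from WT by 0.02 ± 0.12 (log2, SE) in Shank3-HM. In cortex they were 11885 to 16485, 13247 to 16187 and 15395 to 18137. The 12 activity-regulated genes were positive for all 12 in hippocampus in both mutant genotypes, with medians of 0.16 in Shank3-HM and 0.33 in Shank3-HT. In cortex 8 were positive in Shank3-HM (median 0.07) and 12 in Shank3-HT (0.26), and in striatum 5 (-0.02) and 9 (0.06), with 0 past the adjusted threshold in any region. In hippocampus their sums were 11243 to 17021 in WT, 13137 to 20403 in heterozygous and 11792 to 16909 in homozygous samples. The part of either list in the Per1 values was not tested.

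As the hour of dissection is not given, the opposed phases of Arntl and of Per2, Per3 and Dbp were used to describe how far the samples could differ in clock time. For each sample the mean log2 level of Per2, Per3 and Dbp was taken from that of Arntl, and the WT mean of the region was set to 0. This opposed-phase difference was 0 ± 0.121 in WT cortex, -0.10 ± 0.191 in Shank3-HT cortex and -0.13 ± 0.178 in Shank3-HM cortex (SD, n = 5). In hippocampus the WT samples had 0 ± 0.126, Shank3-HT samples 0.08 ± 0.103 and Shank3-HM samples 0.002 ± 0.132, and in striatum 0 ± 0.259, 0.03 ± 0.131 and 0.04 ± 0.218. The groups overlapped in every region, and each mutant mean differed from WT by less than the larger SD of the pair. Being a score over chosen genes, it was given no test.

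**Figure D4:**
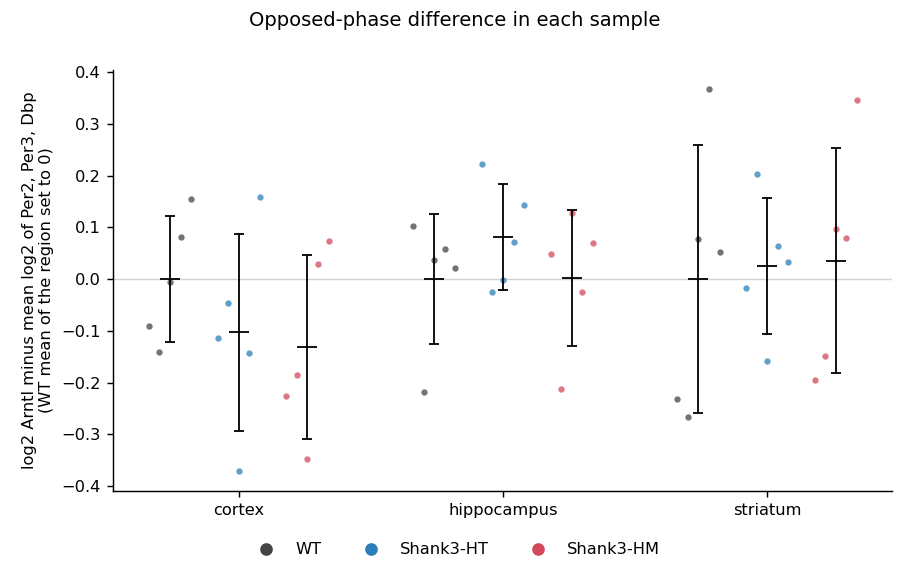
The opposed-phase difference (log2 Arntl minus the mean log2 of Per2, Per3 and Dbp, WT mean of the region at 0) in each of the 45 samples, by region and genotype, with the mean (bar) and SD (whiskers). Samples lie between -0.372 in Shank3-HT cortex and 0.368 in WT striatum, and the genotypes overlap in all regions.

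Within a region, the highest sample of 15 exceeded the lowest by 1.62-fold for Dbp in cortex, 1.59-fold in hippocampus and 1.64-fold in striatum. For Arntl the corresponding ratios were 1.27, 1.24 and 1.53, for Per2 they were 1.34, 1.57 and 1.31, for Per3 they were 1.23, 1.25 and 1.23, and for Nr1d1 they were 1.59, 1.52 and 1.57. Per1 reached 2.02 in cortex. Compared with all 12474 genes with a mean of at least 100, the spread within groups was at the 84.0th percentile for Nr1d1, the 83.6th for Per1 and the 82.7th for Dbp, near the middle for Per2 (51.1) and Arntl (48.1), and low for Per3 (23.1) and Cry2 (5.53).

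If samples were spread widely along a running clock, Arntl would tend to fall where Per2, Per3 and Dbp rise. A narrow spread of hours need not show this, and the hours of dissection are not known. This was examined as 27 relations (Arntl with 9 genes in 3 regions) of the deviations from group means over 15 samples, with two-sided permutation p-values within genotype. None passed an adjusted p of 0.05 for r or rho, and 3 had an unadjusted p under 0.05 for r. Arntl and Clock in cortex were under it for rho only (rho 0.621, r = 0.356, permutation p = 0.0174 and 0.16, adjusted 0.234 and 0.53). Arntl and Dbp were negatively related in all regions, with Pearson's r of -0.371 in cortex (rho -0.45, permutation p = 0.15 and 0.0764), -0.507 in hippocampus (rho -0.425, p = 0.121 and 0.158) and -0.21 in striatum (rho -0.0286, p = 0.509 and 0.928), and with adjusted p of 0.53, 0.53 and 0.859 for r. Without the 2 samples farthest from the median of Arntl, r was -0.53, -0.392 and -0.138. Arntl and Per3 in cortex gave r = -0.683 (rho -0.379, permutation p = 0.0219 and 0.234, adjusted 0.296 and 0.791), which rested on the 2 farthest samples, since r was -0.255 without them. Arntl and Per2 in striatum went the same way and not opposite ways, with r = 0.625 (rho 0.607, permutation p = 0.0341 and 0.0405, adjusted 0.307 and 0.365, and r = 0.552 without the 2 farthest). The third was Arntl and Cry1 in striatum, with r = 0.612 (rho 0.736, permutation p = 0.0152 and 0.0104, adjusted 0.296 and 0.234, and r = 0.669 without the 2 farthest).

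The samples are numbered 1 to 5 in every group, and the labels do not say whether a number of one genotype is the same mouse in the 3 regions. Each clock gene was therefore compared between 2 regions over the 15 same-numbered pairs, as deviations from group means, with numbers permuted within genotype. Of 30 relations, 8 passed an adjusted p of 0.05 for Pearson's r and 11 for Spearman's rho, and the 8 passed for both. Such relations were run for the clock genes only, so no share over all genes stands beside these counts. Whether clock genes differ in this from other genes was not tested. Over all genes, the median correlation of same-numbered samples was 0.111 for hippocampus and striatum, 0.0576 for cortex and striatum and 0.0339 for cortex and hippocampus. Dbp passed in all 3 pairs of regions. Its r was 0.915 between cortex and striatum (rho 0.875, adjusted permutation p = 0.0045 and 0.0041, unadjusted 0.00015 and 0.00027), 0.792 between cortex and hippocampus (rho 0.804, adjusted permutation p = 0.0331 and 0.0244) and 0.729 between hippocampus and striatum (rho 0.768, adjusted permutation p = 0.0331 and 0.0244). Without the 2 samples farthest from the median these were 0.914, 0.694 and 0.688.

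Nr1d1 passed in 2 pairs, with r = 0.842 between hippocampus and striatum (rho 0.861, adjusted permutation p = 0.0064 and 0.0041, 0.826 without the 2 farthest) and r = 0.751 between cortex and striatum (rho 0.718, adjusted permutation p = 0.0331 and 0.0366, 0.704 without the 2 farthest). Per1 passed between cortex and striatum (r = 0.745, rho 0.686, adjusted permutation p = 0.0331 and 0.0433, 0.607 without the 2 farthest), as did Cry1 (r = 0.597, rho 0.779, adjusted permutation p = 0.0331 and 0.0244, 0.583 without the 2 farthest). Clock passed between cortex and hippocampus (r = 0.794, rho 0.668, adjusted permutation p = 0.0396 and 0.0374), where r was 0.491 without the 2 farthest. Arntl (0.336 to 0.484), Per2, Per3, Cry2 and Nr1d2 had no relation past the threshold. In the 10 mutant samples alone 2 of the 30 relations passed. When the mean of each sample number over the genotypes was also removed, r was 0.88 for Dbp between cortex and striatum, but 0.488 between cortex and hippocampus and 0.489 between hippocampus and striatum. It was 0.799 for Per1 and 0.638 for Cry1 between cortex and striatum, 0.687 for Clock between cortex and hippocampus, and for Nr1d1 -0.207 between cortex and striatum and 0.165 between hippocampus and striatum. For Arntl and Per2, which passed in no pair, r was then between 0.552 and 0.745 and between 0.568 and 0.806, against 0.336 to 0.484 and 0.387 to 0.498 before. The other genes that passed in no pair did not rise in this way. Their r was then between -0.649 and -0.0314 for Per3, between -0.695 and 0.123 for Cry2 and between -0.247 and -0.102 for Nr1d2. Without cortex Shank3-HM replicate 2, striatum WT replicate 5 and striatum Shank3-HT replicate 5, which held genes of other tissue, 12 of 30 relations passed for r. Hippocampus libraries were all kept, though their choroid plexus sums reached 123279. Dbp between hippocampus and striatum no longer did (r = 0.627, adjusted permutation p = 0.101). The 5 that passed in addition were Arntl between cortex and striatum (r = 0.666, adjusted permutation p = 0.0456), Per2 between hippocampus and striatum (0.744, 0.0435), Nr1d1 between cortex and hippocampus (0.749, 0.0196), and Per1 between cortex and hippocampus (0.781, 0.0101) and between hippocampus and striatum (0.700, 0.0456). Both settings were chosen after the values were seen.

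**Figure D5:**
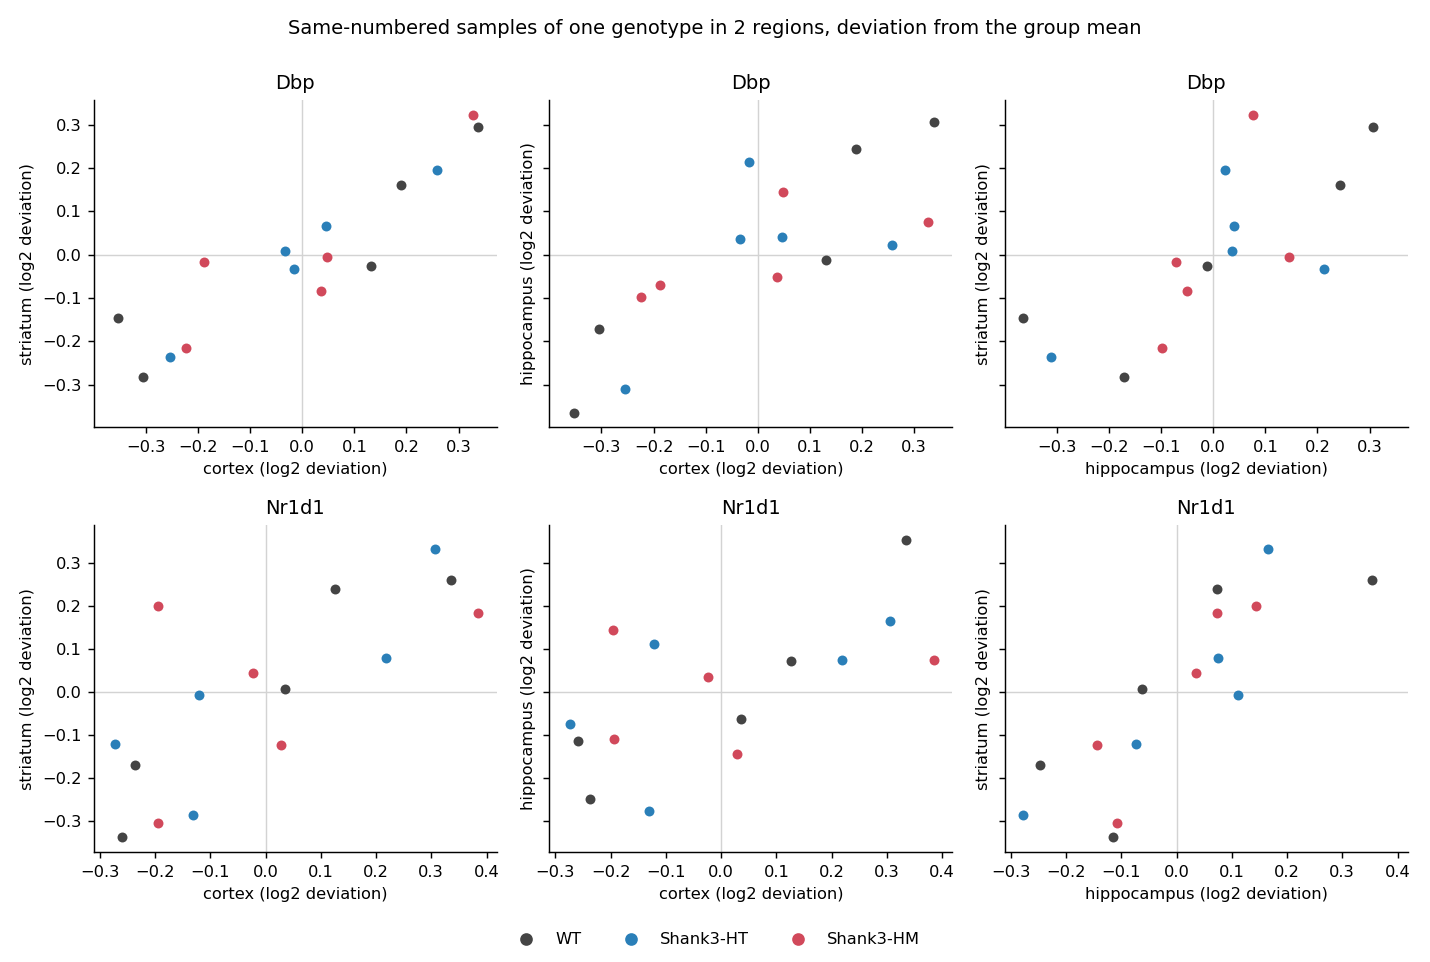
Dbp (top) and Nr1d1 (bottom) in pairs of regions, as log2 deviations of each sample from its group mean; each point is a genotype and sample number measured in both regions (15 points a panel). Points follow the diagonal most closely for Dbp in cortex and striatum, with r = 0.915.

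Because Dbp and Nr1d1 varied together between regions, the sample number of the labels was also fitted as a factor beside genotype, with an F test in limma over all genes of a region. This test was chosen after the values were seen. In striatum Nr1d1 had the highest F of 16482 genes (adjusted p = 0.0191 by limma). The number accounted for 95.6% of its variance within genotypes, against a median of 39.6% over all genes tested there. Nr1d1 was 1 of 2 genes called in striatum (0.0121% of all), the other being Mid1-ps1, named after its values were seen. In cortex and in hippocampus 0% were called. The call was lost without any 1 of 6 single samples (Shank3-HT replicates 1, 4 and 5 and WT replicates 1, 2 and 5), and without the intensity trend. At an unadjusted p under 0.05 there were 3 of 10 clock genes in cortex, 4 in hippocampus and 5 in striatum, where 9.43%, 9.48% and 12.3% of all genes were.

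The genes whose deviations were most like those of Dbp over all 45 samples were named from 12473 genes with a mean of at least 100, as a description without a test. They were Maneal (r = 0.882), Nr1d1 (0.823), Ciart (0.819), Cspg5 (0.772) and Ppp1r1a (0.765). Nr1d1 is a member of the loop, and Ciart (CHRONO) encodes a repressor of ARNTL:CLOCK. At the other end were Castor2 (-0.795), Acot11 (-0.786), Tra2a (-0.765), Dnajc3 (-0.758) and Cdh19 (-0.753). For Arntl the values were lower: Nif3l1 (0.663), Baiap2 (0.659), Pdp1 (0.648), Syne1 (0.615) and Trim9 (0.611) were most alike, and Vwc2 (-0.596), Upf3a (-0.569), Lhx9 (-0.565), Shisal1 (-0.564) and Tgfb2 (-0.548) were most opposed, with no clock gene among either 5. The points of these relations share libraries and their scaling.

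The genes lie on 8 chromosomes (GRCm38, GENCODE vM21). Arntl (ENSMUSG00000055116) spans chr7:113207465-113314126 and Dbp (ENSMUSG00000059824) chr7:45705088-45710203, both on the plus strand. Per1 (ENSMUSG00000020893) spans chr11:69095217-69109960 on the plus strand and Nr1d1 (ENSMUSG00000020889) chr11:98767932-98775333 on the minus strand. Clock (ENSMUSG00000029238, chr5:76209868-76304792), Per2 (ENSMUSG00000055866, chr1:91415982-91459324), Per3 (ENSMUSG00000028957, chr4:151003652-151044665), Cry1 (ENSMUSG00000020038, chr10:85131700-85185064), Cry2 (ENSMUSG00000068742, chr2:92403646-92434043) and Nr1d2 (ENSMUSG00000021775, chr14:18204054-18239127) are on the minus strand. Exons of Dbp share 539 bases with Sphk2, those of Cry2 295 with D930015M05Rik, those of Nr1d1 263 with Thra and those of Arntl 33 with Gm45355, each on the opposite strand. The libraries were made with a kit that keeps the strand, and the strand setting of the counting is not given in the sources used here.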

How the data were processed

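RNA-Seq libraries of cortex, hippocampus and striatum (9 groups of 5 samples) were quantified by the authors with Salmon 1.1.0 against GRCm38 transcripts, summed to genes and scaled with DESeq2 1.26.0 under R 3.6.2, per the submitters' processing notes. The study's methods name later versions of R and DESeq2, and which made the deposited values is not known. The deposited values are a normalized signal per gene (counts divided by size factors, with decimals), so whole reads could not be recovered, the sequencing depth is unknown and no count test was run. Columns marked KI were read as the homozygous samples, since the labels name the same replicates knock-out. Of 18135 identifiers, 18120 matched a gene symbol.

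Values were analysed as log2(value + 1) for genes with a mean of at least 10, with limma 3.58.1 in R 4.3.3 (intensity trend, Benjamini-Hochberg adjustment over all genes tested, threshold 0.05): the 15 samples of a region for genotypes, and all 45 samples in 9 groups for regions and interactions. The fit was tested on simulated data. Fold changes are on that scale and understate low genes. Correlations used deviations from group means, with 100000 permutations within genotype (Python 3.11.15, numpy 2.4.6, scipy 1.17.1), and outlying samples were sought with Dixon's ratio. The 10 members and all gene lists were chosen with earlier results of these data known. All 10 members are named, some of the 24 other clock-linked genes past the threshold in a comparison are named, and the most alike genes are the 5 highest and 5 lowest by r. Alternatives were another pseudocount, other filters, quantile normalization, no trend, a sample number block and leaving out each sample. The DESeq2 alternative was not run, since the table holds no counts.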

Additional observations from a re-analysis of the deposited data

Results flagged for a closer look

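Within each group of 5 samples, the clock gene value farthest from the rest was compared with Dixon's ratio of its gap to the group's range. Of 99 groups looked at, 7 held a sample past the limit, where chance alone gives about 4.95. Clock in WT hippocampus had replicate 1 at 1893, against 2721 to 2931 in the other samples. Per2 in Shank3-HT hippocampus had replicate 2 at 1988, against 1568 to 1689. Per3 in Shank3-HM cortex had replicate 3 at 2770, against 2323 to 2400.0. Cry2 had 3 such samples, all of them low: WT cortex replicate 2 at 4631 against 5056 to 5206, WT striatum replicate 5 at 4143 against 4544 to 4659, and Shank3-HT striatum replicate 5 at 3674 against 4431 to 4645. Of these striatum samples, WT replicate 5 had the highest sum of cortical neuron genes in striatum and Shank3-HT replicate 5 the highest of choroid plexus genes, and the part of that in Cry2 was not tested. The opposed-phase difference of WT hippocampus replicate 2 was -0.218, below the other samples of that group. No difference between groups of these genes was flagged.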

How the results depend on the processing

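The counts of clock genes called between genotypes (0 in each of 6 comparisons) and in interactions (0 in each of 6) were the same under every alternative run, and the counts called between WT regions stayed within 5 to 9 for striatum against cortex (6), at 9 for hippocampus against cortex, and within 9 to 10 for striatum against hippocampus. Leaving out 1 sample moved the log2 difference of Clock between WT hippocampus and cortex between -0.141 and 0.021, and it changed sign without hippocampus WT replicate 1 (adjusted p = 0.794 by limma). Averaging over the 3 genotypes brought Clock (0.149), Per3 (-0.105) and Nr1d1 (-0.223) past the threshold for striatum against cortex, and leaving out cortex WT replicate 1 did so for Per1 (0.344, adjusted p = 0.0274). With mutant samples only, the relations between regions past the threshold fell from 8 to 2, with 10 instead of 15 pairs, and r of the 6 lost was 0.48 to 0.674, among them Cry1 at 0.643, Per1 at 0.674 and Nr1d1 at 0.639 between cortex and striatum. With the means of the sample number removed, r of Nr1d1 between cortex and striatum turned to -0.207. For the sample number test, leaving out 1 sample gave 0 to 1 clock genes in cortex, where it was Shank3-HM replicate 2, and 0 to 1 in striatum, where no gene was called without Shank3-HT replicate 1, 4 or 5 or WT replicate 1, 2 or 5, and it gave 0 with no intensity trend. The read counts behind the values are unknown, so no counting error could be given.

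The labels do not say what a number shares, and the numbers did not meet the condition set for pairing, that every same-numbered correlation over all genes is above 0.1. Between genotypes these correlations were -0.1185 to 0.15. Between regions they were -0.1 to 0.2255, and for hippocampus and striatum all 15 were above 0, with a median of 0.111 against -0.036 for different numbers. Among the 5 samples of the other region, a sample correlated best with its own number in 23 of 30 cases for hippocampus and striatum, 16 for cortex and striatum and 15 for cortex and hippocampus, and between genotypes in 10 of 30 for cortex, 7 for hippocampus and 9 for striatum, where 6 of 30 come about if numbers do not matter. With the replicate block, 0 clock genes were called in each genotype comparison and each interaction, with a lowest adjusted p of 0.273 (Dbp, Shank3-HM striatum). The genotype tests at an unadjusted p under 0.05 were partly others. They were Per1 in Shank3-HT cortex and in hippocampus of both mutant genotypes, and Arntl in Shank3-HM cortex. Nr1d2 in Shank3-HM hippocampus and Per2 and Dbp in Shank3-HM striatum were also among them, and Cry1 in Shank3-HM striatum was not. Over all genes the block moved the calls in Shank3-HM cortex from 2 to 1, in Shank3-HM striatum from 30 to 39, and for the Shank3-HM difference between striatum and cortex from 9 to 20. Between striatum and hippocampus the calls went from 12 to 15 for the Shank3-HM difference and from 0 to 1 for the Shank3-HT difference. Calls between WT regions rose as well, from 9910 to 10296 for striatum against cortex, 7790 to 8304 for hippocampus against cortex and 9373 to 9835 for striatum against hippocampus. For regions and interactions the block was a shared correlation of 0.121 between same-numbered samples. The block changed no call of a clock gene.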

Other observations

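Ciart, a repressor of ARNTL:CLOCK that is not among the 10 genes, was among the genes ranked highest for the sample number in striatum and cortex, but not in hippocampus. In the F test it ranked 5 of all genes in striatum (adjusted p = 0.0705 by limma), 4 in cortex (adjusted p = 0.109) and 511 in hippocampus (adjusted p = 0.495). Dbp ranked 37 in striatum, 23 in cortex and 1006 in hippocampus (adjusted p = 0.155, 0.251 and 0.504). Nr1d1 ranked 64 in cortex and 88 in hippocampus (adjusted p = 0.308 and 0.408). None of these passed the threshold, and the labels do not say what a number shares.

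The Nr1d1 values in striatum show the pattern. In WT they were 3117, 3076, 2618, 2317 and 2060.1 for numbers 1 to 5, in Shank3-HT 3236, 2714, 2557, 2363 and 2105, and in Shank3-HM 2942, 2975, 2673, 2379.9 and 2096. The same numbers were thus high and low in each genotype. Over the 9 groups, the highest Nr1d1 value was that of number 1 in 7 groups and of number 2 in 2, and the lowest was number 5 in 5 groups, number 4 in 3 and number 2 in 1. For Dbp the lowest was number 5 in 7 groups and number 4 in 2, and the highest was number 1 in 4, number 2 in 4 and number 3 in 1. Per1 was highest in number 1 in 7 of 9 groups and in number 2 in 2. Its lowest value was number 4 in 3 groups, number 5 in 3, number 2 in 2 and number 3 in 1. Nr1d1, Dbp and Per1 were chosen here after the values were seen, so these counts are a description and no test. The 9 groups are not independent if a number marks the same mouse in the 3 regions. In the limma F test, Arntl had an unadjusted p of 0.318, 0.63 and 0.431, and Cry1 of 0.883, 0.0779 and 0.825 (cortex, hippocampus, striatum).

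No gene of the 11 other lists was called for the number in any region. At an unadjusted p under 0.05, the highest shares were 5 of 5 endothelial genes in cortex (9.43% of all genes there), 7 of 12 activity-regulated genes in hippocampus (9.48%) and 5 of 5 oligodendrocyte genes in striatum (12.3%), while the choroid plexus and microglia lists had none in any region. Their part in the clock gene pattern was not tested.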
